A study of Drosophila melanogaster with 6 samples.

Results

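The genes of the mitochondrial respiratory chain and ATP synthase were examined in adult fly heads in which neurons overexpressed the RNA-binding protein LARK. A gene was included when a probe set carried a single annotated symbol that began with ND-, UQCR, COX, Sdh or ATPsyn, or that read cype, levy, Cyt-c1 or RFeSP. Cyt-c-p, which encodes cytochrome c, was also sought, but no probe set carried it as a single symbol and it was not analysed here. This gave 71 genes of 10844 with such a probe set, namely 31 for complex I, 7 for complex II, 6 for complex III, 13 for complex IV and 14 for complex V. A gene with several probe sets was represented by the probe set with the highest mean log2 signal over the arrays.

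Heads came from the progeny of elav-gal4 females crossed to uas-lark males, a mixture of elav-gal4; uas-lark/+ males and elav-gal4/+; uas-lark/+ females, and from driver controls without uas-lark. The controls were elav-gal4 males and elav-gal4/+ females from a cross of the driver females to w1118 males, so both groups shared the driver. The driver is active in neurons, whereas the heads also hold glia, muscle, fat body and other cells. Flies were entrained at 25°C to 12 h of light and 12 h of darkness and frozen at ZT6, 6 h into the light phase; their age and the number of heads pooled were not given in the sources used here. By the series' design text, the 3 arrays of a genotype repeat the labeling and hybridization of 1 RNA sample, so on that description the tests measure labeling and hybridization spread and not the spread between flies. The LARK overexpression arrays do not bear this description out, as shown next.

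The respiratory chain passes electrons from NADH, through complex I, or from succinate, through complex II, to ubiquinone, then through complex III and cytochrome c to complex IV, which reduces oxygen. Complexes I, III and IV pump protons across the inner mitochondrial membrane, and complex V, the ATP synthase, uses the resulting gradient to make ATP. Complex II is also the succinate dehydrogenase of the tricarboxylic acid cycle and pumps no protons. Neurons and photoreceptors depend heavily on this pathway, and some catalytic subunits are made from mitochondrial DNA, whereas the genes described here are nuclear.

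Several features of the arrays bear on all the values that follow. RNA quality, read from the 3′ over 5′ ratio of the eIF-4a control transcript, differed between genotypes, at 6.27 ± 0.24 for LARK overexpression and 2.88 ± 0.12 for the control (mean ± SD, n = 3 arrays each). The correlation of LARK overexpression array 1 was 0.923 with control array 1 but only 0.901 and 0.909 with the other LARK overexpression arrays, which had 0.937 between them. The arrays of this genotype also differed in genes of other tissues, since fln, a flight muscle gene, read 13.7 on LARK overexpression array 1 but 1089 and 1242 on arrays 2 and 3, against 7.60 to 13.1 in the control. The digestive protease gene alphaTry read 8.93, 560.5 and 429 on the LARK overexpression arrays, and Cyp4g1, an oenocyte enzyme that stands in the fat body list, read 7.67, 1267 and 1220.1. Whether these 3 arrays hold the same RNA sample is therefore doubtful, and their spread may have sources other than labeling and hybridization. These 3 genes were named after their values were seen. Without LARK overexpression array 1 the members described below had a median log2 difference of 0.17, with 47 of 57 above 0 and 0 called. The 2 arrays of each replicate number share a hybridization day. The lark probe set read 177, 169 and 165 with LARK overexpression and 149, 184 and 192 in the control, so its log2 difference was -0.03 (standard error, SE, 0.19, limma adjusted p = 0.949) and turned to 0.09 when each array was centered on its median. Whether the transgene carries the sequence of these probes is not given in the files, so the genotype labels are not checked by it. Marker genes of the head were present, since 14 of 15 neuron markers on the array and 9 of 9 photoreceptor markers exceeded a signal of 40 on at least 1 array. Of the 14 neuron markers 9 lay below 0 and 5 above, among the latter ChAT at 0.37 (SE 0.24), named after its value was seen. Of the markers below 0, 5 were called lower, against 2.15% of all kept probe sets. Of these calls, VGlut and cac had passed the filter through control arrays alone, where they were high, so their calls are no support. Among the calls, nSyb, a synaptic vesicle gene, fell by 2.01 (SE 0.24, limma adjusted p = 0.02005), and with a replicate block 0 probe sets were called, so all 5 calls ended (adjusted p = 0.0856 for nSyb). In whole heads, fewer cells of a type and less RNA per cell cannot be told apart.

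Of the 71 genes, 57 had a deposited signal above 40 on at least 1 array and were measured, 52 of them on all 6 arrays. The only member that passed through LARK overexpression arrays alone was ND-51L1, at a single array, and none passed through control arrays alone. The 14 genes with a deposited signal of at most 40 on every array were ND-B8, COX7C and 12 genes whose symbol adds L, in COX6AL2 followed by a number, to that of another subunit gene, which marks a paralogue. In all, 17 members were such paralogues and 5 of them were measured. Many L-named subunit genes of the fly are known for expression in the testis, and of 16 testis markers on these head arrays 13 were at most 40 throughout. The summed signal of the 3 measured testis markers ranged from 179 to 240.3 with LARK overexpression and from 133 to 219 in the control. Apart from this filter, signals are given after each array was scaled to a 2% trimmed mean of 100, and differences are LARK overexpression minus control on the log2 scale.

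Genes of all 5 complexes read slightly higher with LARK overexpression, but no single member passed the test. A log2 difference above 0 was found for 51 of the 57 measured members, against 43.8% of all 9432 probe sets kept, and the median was 0.22 against -0.07. By limma 0 members were called at an adjusted p under 0.05, while 2.27% of the kept probe sets were called, 0.117% higher and 2.15% lower. These were 11 higher and 203 lower, or 32 higher and 114 lower without scaling the arrays to a common mean, and again 0 members. Unadjusted p-values were under 0.05 for 3 members, SdhB, SdhC and ND-13A, and for 1834 of the kept probe sets. The lowest adjusted p of a member was 0.134, for SdhB. In 17 members all LARK overexpression arrays lay above all control arrays, which is 29.8% of those measured against 8.28% of the kept probe sets. The share among kept probe sets of similar signal was larger and is given below. The reverse held for 0 measured members and for 16.4% of the kept probe sets. Members share their arrays and are not independent of each other, so these shares are descriptions and no test was made of the list. The differences were small, none beyond 1 in either direction, with standard errors of 0.17 to 0.43 and a median standard error of 0.20. The 95% interval lay within a log2 difference of 1 for 52 of the 57 members, and it included 0 for 54.

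**Figure D1:**
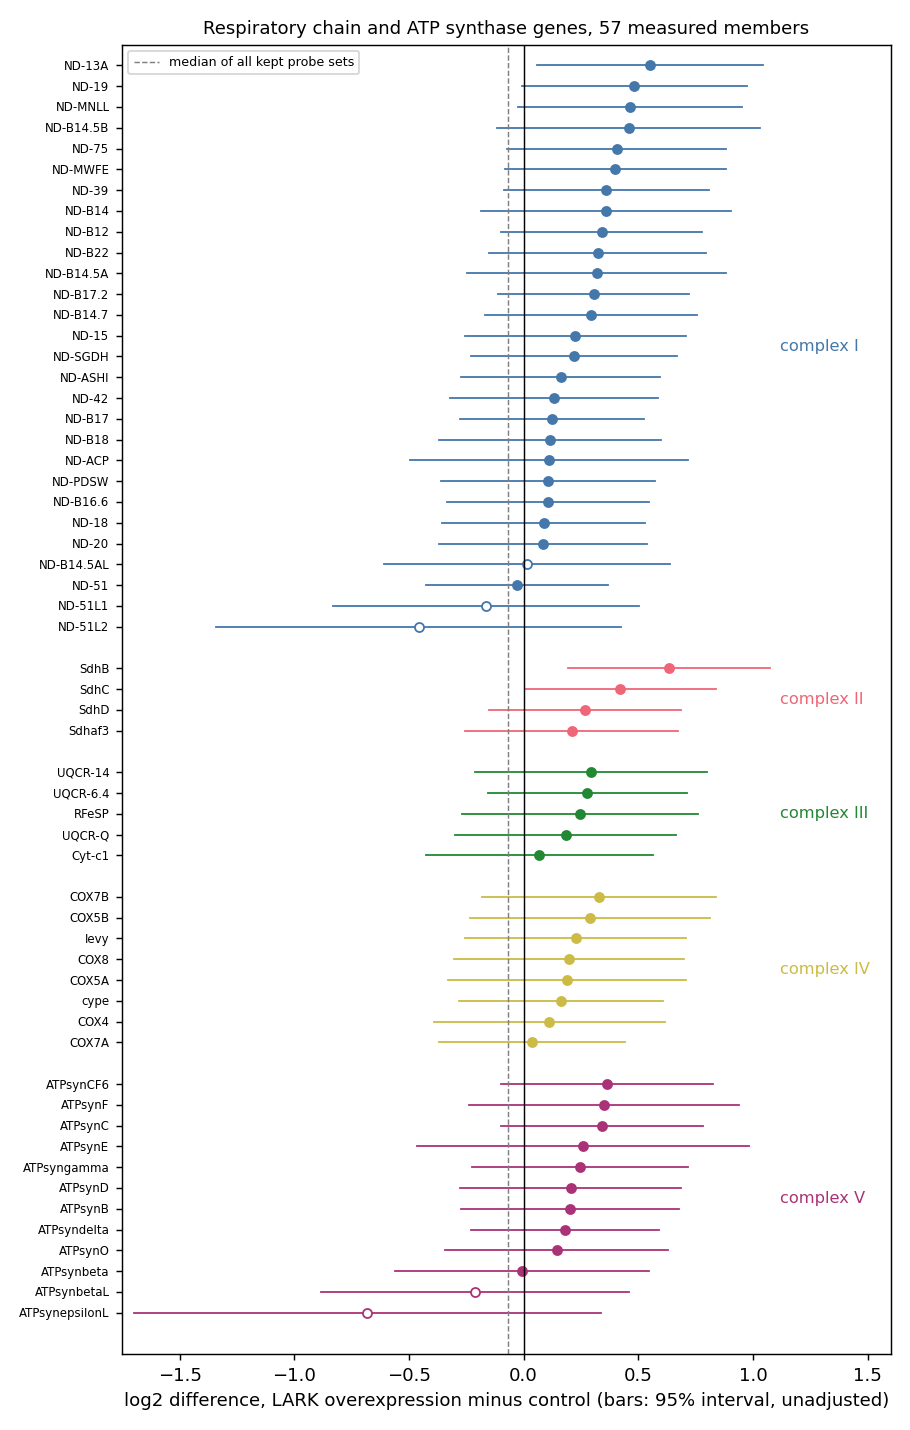
Log2 difference, LARK overexpression minus control, for each of the 57 measured genes, one per line and grouped by complex; points are limma estimates from 3 arrays per genotype, bars are unadjusted 95% intervals, and open points are L-named paralogues. Most points lie to the right of 0 and of the dashed median of all kept probe sets (-0.07), and only the bars of SdhB, SdhC and ND-13A stay clear of 0.

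Complex I takes electrons from NADH and is the largest of the complexes. Of its 28 measured members 25 lay above 0, with a median log2 difference of 0.22. In 9, or 32.1%, all LARK overexpression arrays were the higher, against 8.28% of all kept probe sets. The share was 18.0% of kept probe sets with a mean signal of 300 to 1000 and 14.1% of those of at least 1000. The 3 measured core subunits, which carry the flavin and iron-sulfur groups, had log2 differences from -0.03 to 0.41 with overlapping intervals. ND-51, which holds the flavin site that accepts electrons from NADH, read 1169.6, 1089.7 and 1103 with LARK overexpression and 1104, 1157 and 1168 in the control. Its genotypes overlapped almost fully, at a log2 difference of -0.03 (SE 0.17, 95% interval -0.42 to 0.37, limma adjusted p = 0.949), which became 0.10 with centered arrays. ND-75, an iron-sulfur subunit beside it in the same arm, read 909, 887 and 676 against 563, 646 and 645. Here all LARK overexpression arrays were higher, by 0.41 (SE 0.20, limma adjusted p = 0.33). ND-20, the iron-sulfur subunit next to the ubiquinone site, read 1408, 1222 and 1079 against 1111, 1268 and 1103. Its difference of 0.09 (SE 0.19, limma adjusted p = 0.856) came from array 1, since without LARK overexpression array 1 it was -0.01.

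The other 22 measured subunits of complex I that are not L-named all lay above 0, from 0.09 to 0.55, with a median log2 difference of 0.30. They are mostly accessory subunits, which surround the core and are needed for its assembly and stability. ND-13A, a zinc-binding subunit, read 653, 850.1 and 654 with LARK overexpression and 436, 559 and 472 in the control. Every LARK overexpression array exceeded every control array, and the log2 difference was 0.55 (SE 0.21, 95% interval 0.06 to 1.05, limma adjusted p = 0.217). ND-19 read 1144, 1371 and 1071 against 777, 1008 and 784, again with no overlap, at 0.48 (SE 0.21, limma adjusted p = 0.264). ND-MNLL read 1588, 1321 and 1201 against 1130.3, 971 and 871, a log2 difference of 0.47 (SE 0.20, limma adjusted p = 0.279). A second probe set of ND-MNLL gave 0.45 (SE 0.25), although its genotypes overlapped. For the 3 replicate numbers the differences were 0.58, 0.60 and 0.47 for ND-13A, 0.56, 0.44 and 0.45 for ND-19, and 0.49, 0.44 and 0.46 for ND-MNLL. They were named after their values were seen, as was ND-75.

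The remaining complex I genes without overlap were ND-39, ND-B12, ND-B14.7, ND-B17 and ND-B17.2, also named after their values were seen, at log2 differences from 0.12 for ND-B17 to 0.36 for ND-39. ND-MWFE, a small membrane subunit, read 2749, 2532 and 2063 with LARK overexpression and 1779, 2094 and 1678 in the control. Only the lowest LARK overexpression array fell within the control range, and the log2 difference was 0.40 (SE 0.20, limma adjusted p = 0.341). ND-B16.6, another accessory subunit, read 2873, 2851 and 2329.8 against 2318, 2629 and 2512, which overlap. Its difference of 0.11 (SE 0.18, limma adjusted p = 0.813) turned to -0.03 under quantile normalization. ND-B14.5A read 938, 1067 and 798 against 593, 929.6 and 746, a log2 difference of 0.32 (SE 0.24, limma adjusted p = 0.517).

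Complex II had the largest median log2 difference of the 5 complexes, 0.34 over 4 measured members, though the complexes were not tested against each other. All 4 lay above 0 for each of the 3 replicate numbers. SdhB, the iron-sulfur subunit that passes electrons from succinate towards ubiquinone, read 1110.0, 913 and 863 with LARK overexpression and 611, 639.9 and 599.6 in the control. The lowest LARK overexpression array stood well above the highest control array, and the log2 difference of 0.63 was 1.55-fold (SE 0.18, 95% interval 0.19 to 1.07, limma adjusted p = 0.134). The adjusted p of SdhB was 0.184 with a replicate block and 0.0471 when an intensity trend and robust prior were added to the block, the only setting tried that called a member. Without LARK overexpression array 1 the log2 difference of SdhB was 0.53.

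SdhC and SdhD form the membrane anchor of complex II, where ubiquinone is reduced. SdhC read 578, 532 and 524 with LARK overexpression and 446, 391 and 384 in the control, with no overlap, at a log2 difference of 0.42 (SE 0.17, 95% interval 0.01 to 0.84, limma adjusted p = 0.253). SdhD read 829, 864 and 809 against 723, 739 and 620.5, also with no overlap, at 0.27 (SE 0.18, limma adjusted p = 0.46). Sdhaf3 shares the prefix but encodes an assembly factor of complex II. It read 64.0, 48.7 and 53.1 against 45.5, 44.6 and 52.8, overlapping at a log2 difference of 0.21 (SE 0.20, limma adjusted p = 0.621). The flavoprotein subunit gene SdhA itself was not analysed here, and its paralogue SdhAL was among the genes at most 40 on every array.

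**Figure D2:**
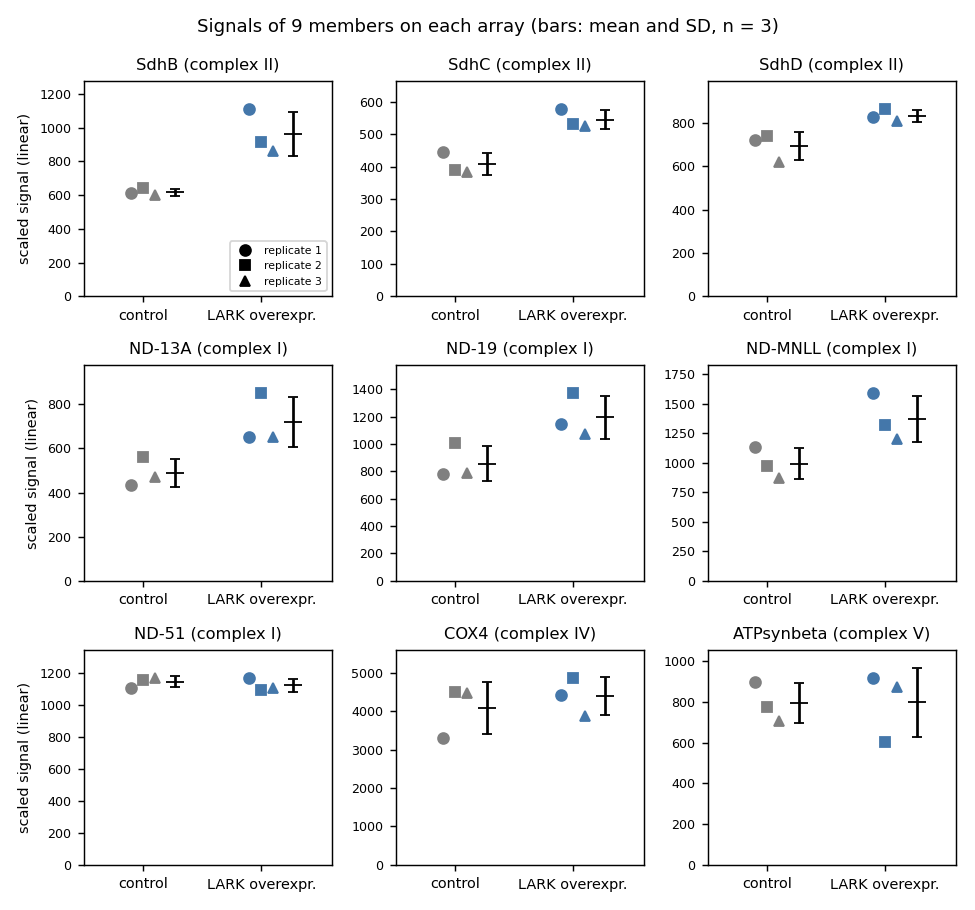
Scaled signal (linear axis from 0) of 9 members on each array, with control arrays in grey and LARK overexpression arrays in blue; the marker shape gives the replicate number, and the bars beside the points are the mean and SD of 3 arrays. SdhB, SdhC, SdhD, ND-13A, ND-19 and ND-MNLL show no overlap between genotypes, while ND-51, COX4 and ATPsynbeta overlap.

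Complex III, which oxidizes ubiquinol and reduces cytochrome c, had 5 measured members, all above 0, with a median log2 difference of 0.24. UQCR-14 read 3392, 2457 and 2391 with LARK overexpression and 2370.5, 2013 and 2268 in the control, so the genotypes were parted narrowly, at 0.29 (SE 0.21, limma adjusted p = 0.505). UQCR-6.4 read 3029, 2487 and 2662 against 2112, 2178 and 2443, also without overlap, at 0.28 (SE 0.18, limma adjusted p = 0.46). Both are small supernumerary subunits, as is UQCR-Q, which read 6310.4, 5534 and 5068 against 4430.0, 5860.3 and 4654 and overlapped at 0.18 (SE 0.20, limma adjusted p = 0.683). RFeSP, the Rieske iron-sulfur protein, which carries electrons, had a log2 difference of 0.24 (SE 0.22, limma adjusted p = 0.594). For Cyt-c1, the heme subunit that hands electrons to cytochrome c, the signals were 1018, 1433 and 1389 against 1122, 1236 and 1269. LARK overexpression array 1 was the lowest of the 6, and the log2 difference of 0.07 (SE 0.21, limma adjusted p = 0.898) turned to -0.02 under quantile normalization.

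Complex IV, cytochrome c oxidase, had 8 measured members, all above 0, but the genotypes overlapped in every one. Their median log2 difference was 0.19, and the values ran from 0.04 to 0.33. COX4, a subunit that binds regulatory nucleotides in mammals, read 4437, 4878 and 3887 with LARK overexpression and 3303, 4497 and 4478 in the control. Control array 1 was the lowest, and without it the log2 difference of 0.11 (SE 0.21, limma adjusted p = 0.828) became -0.03. The accessory subunit gene cype read 3716, 3441 and 3098 against 2782, 3430.2 and 2959, a log2 difference of 0.16 (SE 0.19, limma adjusted p = 0.696). Another accessory subunit, levy, whose loss is known to cause neurodegeneration and paralysis in flies, read 3287, 3183 and 2566 against 2279.7, 2940.2 and 2492. Its difference was 0.23 (SE 0.20, limma adjusted p = 0.596). COX5B read 3304, 3569.5 and 2937 against 2099.6, 3068 and 2944, at 0.29 (SE 0.22), of which 0.65 was seen for replicate 1, 0.22 for replicate 2 and 0.00 for replicate 3. COX7A read 2054, 2137 and 2077 against 1930.1, 1974 and 2219.7, at 0.04 (SE 0.17), or -0.09 under quantile normalization.

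Complex V had 12 measured members, 9 of them above 0, with a median log2 difference of 0.20. The catalytic subunit gene ATPsynbeta read 918, 605 and 872 with LARK overexpression and 898, 773 and 706 in the control. LARK overexpression array 2 was the lowest of the 6, and the log2 difference was -0.01 (SE 0.23, 95% interval -0.56 to 0.55, limma adjusted p = 0.993), or 0.12 with centered arrays. In 3 members, or 25.0%, the genotypes did not overlap, all higher with LARK overexpression. This compares with 8.28% of all kept probe sets and 14.1% of those with a mean signal of at least 1000. ATPsynCF6, a part of the peripheral stalk that holds the catalytic head still, read 2306, 2161 and 1924 against 1841, 1723 and 1421, at 0.36 (SE 0.19, limma adjusted p = 0.365). ATPsynC, whose product forms the rotating ring in the membrane, read 2409, 3011 and 2918 against 2032, 2297 and 2219.5, at 0.34 (SE 0.18, limma adjusted p = 0.369). The other probe set of ATPsynC went the opposite way, at -0.23 (SE 0.22) with signals of 53.1 to 86.5. For ATPsyndelta, in the central stalk, the difference was 0.18, and both ATPsynC and ATPsyndelta were named after their values were seen. Further subunits of the peripheral stalk overlapped between genotypes, with ATPsynD at 0.21 (SE 0.20, limma adjusted p = 0.643) and ATPsynO at 0.14 (SE 0.20, limma adjusted p = 0.762).

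The measured L-named paralogues mostly lay below 0, unlike the other members, but a difference between these groups was not tested. Of the 5 measured, 1 lay above 0, and their median log2 difference was -0.21, against 50 of 52 and 0.24 for the other members. Their signals were low and their spread was wide. The unadjusted interval of each measured paralogue included 0.24, the median of the other members. ATPsynepsilonL read 16.8, 29.4 and 45.4 with LARK overexpression and 43.9, 65.5 and 32.1 in the control, overlapping at -0.68 (SE 0.43, limma adjusted p = 0.44). ATPsynbetaL read 116, 102 and 63.6 against 87.2, 114 and 118, and ATPsynbetaL turned from -0.21 to 0.05 without LARK overexpression array 3. ND-51L1 and ND-51L2 had log2 differences of -0.16 (SE 0.28) and -0.46 (SE 0.37), and ND-B14.5AL had 0.01 (SE 0.26). ND-51L1 turned to 0.13 under quantile normalization, and ND-B14.5AL turned to -0.15 without LARK overexpression array 1. The other kept probe sets at a signal under 100 also leaned below 0, with a median of -0.15 and 38.7% above 0. Paralogues can share sequence with their parent gene, and how far probes distinguish them was not tested.

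**Figure D3:**
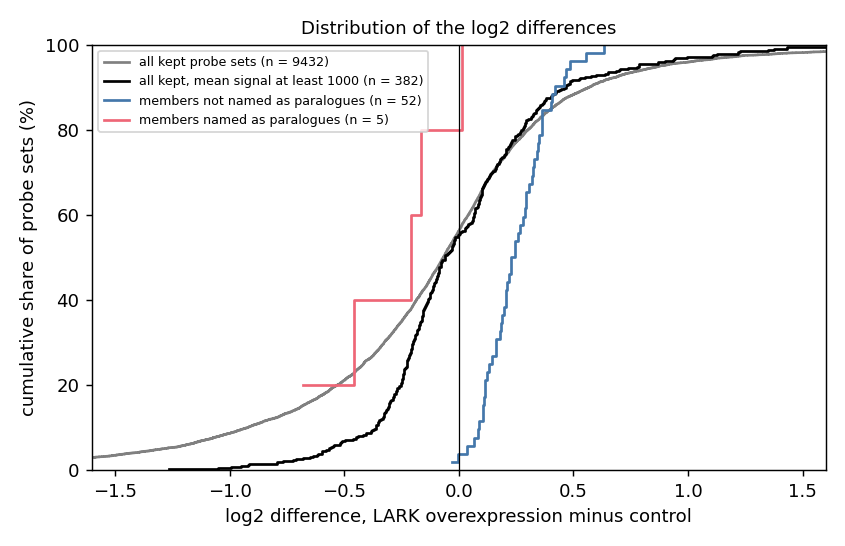
Cumulative share of probe sets (%) by log2 difference, LARK overexpression minus control, for all 9432 kept probe sets (grey), the 382 kept probe sets with a mean signal of at least 1000 (black), the 52 measured members not named as paralogues (blue) and the 5 measured paralogues (red). The blue line starts near 0 and has its median at 0.24, while both the grey and the black lines cross 0 beyond the middle of their range and extend further on both sides.

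The difference was not even over the arrays. For each gene the deviation of an array from the mean of all 6 arrays was taken, and the median over the 52 members not named as paralogues was 0.21, 0.18 and -0.02 on LARK overexpression arrays 1, 2 and 3, against -0.21, 0.03 and -0.13 on control arrays 1, 2 and 3. On control array 1 only 2 of the 52 lay above their mean, whereas 49 did on LARK overexpression array 1. LARK overexpression array 3, with 22 of 52 above their mean, lay below control array 2, with 31, so the genotypes were not parted at the level of the whole set. Within arrays of the same replicate number the median log2 difference of the 57 members was 0.44 for replicate 1, 0.14 for replicate 2 and 0.10 for replicate 3, and 54, 45 and 41 members lay above 0. In 34 members, or 59.6%, the LARK overexpression array was the higher for all 3 numbers, against 17.6% of the kept probe sets. Complex II was more even than the rest, at medians of 0.43, 0.34 and 0.42, while complex IV went from 0.44 to 0.11 and 0.04. Whether complexes differed in this respect was not tested.

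**Figure D4:**
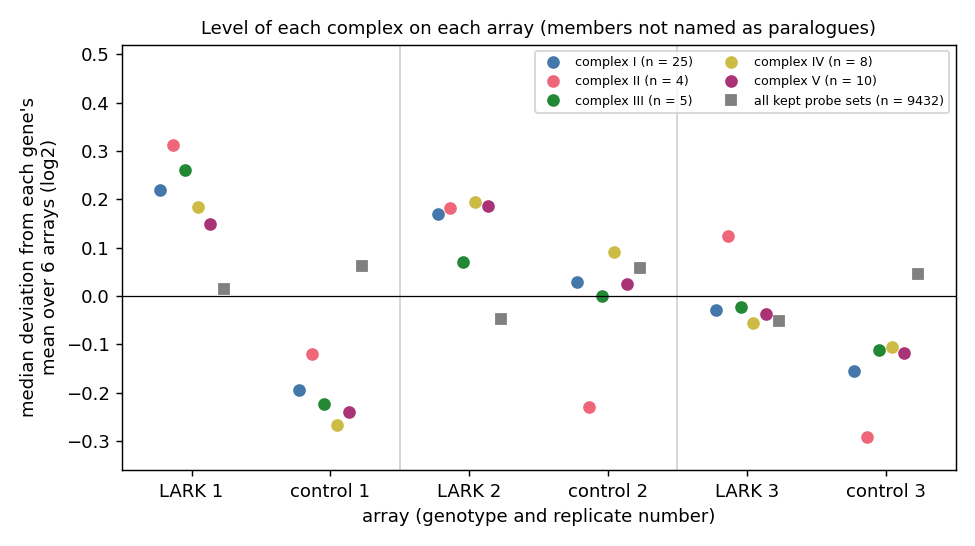
Median deviation (log2) of the measured members of each complex, paralogues left out, from each gene's mean over 6 arrays, with grey squares for all kept probe sets; arrays of one replicate number stand side by side. For replicate 1 all complexes lie above 0 with LARK overexpression and below 0 in the control, and for replicates 2 and 3 the gap is smaller, least so for complex II.

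Highly expressed genes as a class also shifted with the replicate number, so the members were set beside probe sets of similar signal. The 382 kept probe sets with a mean signal of at least 1000, members included, had median log2 differences of 0.22, -0.15 and -0.17 for replicates 1, 2 and 3. The 35 members in that class had 0.45, 0.12 and 0.08, which is 0.23, 0.27 and 0.24 above the class. Between 300 and 1000, the 16 members lay 0.33, 0.25 and 0.22 above the 860 kept probe sets. The offset varied little in the class of at least 1000 and was largest for replicate 1 in the other, and the members are part of the classes they were set against. In the class of at least 1000, 34 of 35 members were above 0 against 44.5% of all its probe sets, and between 300 and 1000 these were 15 of 16 and 54.8%. All LARK overexpression arrays lay above all control arrays in 20.0% of members against 14.1% in the class of at least 1000. Between 300 and 1000 these shares were 62.5% and 18.0%. The LARK overexpression array was higher for all 3 numbers in 57.1% against 24.3% and in 81.2% against 30.3%, in the same order of classes.

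Markers of other cell types also differed between genotypes and arrays. Of 18 measured muscle markers, from a tissue rich in mitochondria, 11 lay above 0, with a median log2 difference of 0.22 and 0 called, and the medians were -0.14, 0.31 and 0.31 for replicates 1, 2 and 3. The flight muscle genes Act88F, fln and TpnC4 moved far more, with Act88F at -0.72, 5.16 and 4.81, fln at 0.07, 6.97 and 7.35 and TpnC4 at -0.12, 7.82 and 7.08 for the 3 numbers. The other direction was taken by 7 of the 18, among them Mf and sls, both at -0.56 without overlap. The summed signal of the measured muscle markers was 17831, 29425 and 26225 on the LARK overexpression arrays and 18745, 22644 and 20637 on the control arrays. All 18 measured gut markers lay above 0, with a median of 1.66, medians of 0.43, 2.20 and 2.31 for replicates 1, 2 and 3, and 0 called. Many had passed the filter through LARK overexpression arrays alone, where they were high, so this count and these medians are no support. These were alphaTry, betaTry, thetaTry, Jon25Biii, Jon65Ai, Jon65Aii, Jon99Fii, Mal-A1, Mal-A7 and Mal-A8. On the array 5 more were at most 40 throughout. Of those, zetaTry and LysX were lower without overlap, and Jon99Fi and Mal-A6 higher. The summed signal of the measured gut markers was 948 to 4630 with LARK overexpression and 709 to 837 in the control. Fat body markers were above 0 in 6 of 14 and below 0 in 8, with medians of 0.38, -0.26 and -0.21. For replicates 2 and 3, Cyp4g1, Fbp1, Fbp2 and Obp99b were higher by 3.13 to 8.45. Others fell for these numbers, with apolpp at -0.98 and -0.83 and FASN1 at -0.72 and -0.68. Photoreceptor markers were above 0 in 2 of 9, with medians of 0.23, -0.50 and -0.21, so like the members these lists had their highest median for replicate 1. Glial markers were above 0 in 5 of 8, and 0 were called in the fat body, photoreceptor and glial lists. Without LARK overexpression array 1, Act88F, fln, TpnC4, alphaTry, Cyp4g1, Fbp1, Fbp2 and Obp99b were each called higher. They were chosen after their values on that array were seen, so leaving it out fixed this outcome in advance. Of these, fln, TpnC4, alphaTry, Cyp4g1 and Fbp2 passed the filter through LARK overexpression arrays alone. Genes named here from the muscle and fat body lists were chosen after their values were seen. The part of cell type makeup and of RNA quality in the members' differences was not tested.

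Other genes that serve the pathway were less uniform than its subunits. Of 22 measured assembly factors and ubiquinone synthesis genes, 15 lay above 0, with a median log2 difference of 0.15 and 0 called. Cox10, which acts in the synthesis of heme a for complex IV, read 454, 402 and 380.2 with LARK overexpression and 281, 333 and 240.4 in the control, with no overlap, at 0.54 (SE 0.20, limma adjusted p = 0.217). CIA30, an assembly factor of complex I named after its value was seen, had 0.70 (SE 0.27, limma adjusted p = 0.228). Cox17, which delivers copper to complex IV, had 0.31 (SE 0.20, limma adjusted p = 0.451).

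A list of genes for the tricarboxylic acid cycle, which supplies NADH and succinate, also held the cytosolic malate dehydrogenase Mdh1 and the NADP-dependent Idh, which are not enzymes of the cycle itself. Of its 12 measured genes 4 lay above 0 and 0 were called, with a median log2 difference of -0.07, close to that of all kept probe sets. Idh3a, the catalytic subunit of NAD-dependent isocitrate dehydrogenase, read 1392, 1345 and 1615 with LARK overexpression and 883, 788 and 843 in the control. All LARK overexpression arrays were far above the control arrays, at 0.79 (SE 0.18, limma adjusted p = 0.0798). Over the alternatives its adjusted p ran from 0.0230 to 0.667, and it was called in 5 of them. Idh3g, another subunit of the same enzyme, read 1052, 1018 and 873 against 1228, 1445 and 1347 and went the other way, at -0.45 (SE 0.18, limma adjusted p = 0.244). Both were named after their values were seen. Mdh1 had -0.14 (SE 0.19) and the aconitase gene mAcon1 0.00 (SE 0.17).

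Carriers that exchange metabolites across the inner membrane and related genes lay above 0 in 4 of 12, with a median of -0.14 and 0 called. The adenine nucleotide translocase sesB, which exports ATP, read 6698, 6066 and 5901 against 5356, 5520.5 and 6371, overlapping at a log2 difference of 0.12 (SE 0.18, limma adjusted p = 0.78). Mpcp1, a phosphate carrier named after its value was seen, read 1171, 1789 and 1381 against 912, 1108 and 965, without overlap, at 0.52 (SE 0.22, limma adjusted p = 0.264). The arginine kinase gene Argk1 had -0.17 (SE 0.23, limma adjusted p = 0.737).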

How the data were processed

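The deposited values are linear signal intensity values of 14010 probe sets on 6 Affymetrix Drosophila genome arrays, made with MAS5 according to the submitters' processing notes (settings and version not given in the sources used here), whereas the paper's methods describe GCRMA instead. Of 13966 probe sets that are not array controls, 12443 have 1 annotated symbol, 327 several and 1196 none.

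The 2% trimmed mean of the deposited intensity was 150, 85 and 100 for replicates 1, 2 and 3 of both genotypes, so each array was scaled to a common 100. The filter kept 9432 probe sets whose deposited signal exceeded 40 on 1 or more arrays. Their log2 signals entered a linear model in limma 3.58.1 (R 4.3.3) without a block, 2-sided, with Benjamini-Hochberg adjustment over all kept probe sets and calls at an adjusted p under 0.05. The fitting script was tested on simulated data. The number of arrays limits the precision.

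Arrays with the same replicate number share a hybridization day and deposited scale, which pairs them. Deviations from the genotype means of same-numbered arrays correlated at 0.0936, 0.172 and 0.0256 across probe sets, and those of other pairs between genotypes at -0.212 to 0.102. Because deviations sum to 0 within a genotype, these values do not decide whether the pairing can be left out. The replicate block is given as an alternative, and with it 0 probe sets were called.

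Members and lists were chosen with earlier results of these data known. By rule the text names, per complex, up to 4 members called in each direction or otherwise the 2 with the highest signal. It also names the members given by full name, lark, and up to 3 called or otherwise 2 genes per list. Each member that is the parent of an L-named paralogue is named too, whether or not that paralogue was measured. Measured paralogues are named as well, among them ATPsynepsilonL, whose parent is no member. Of the marker lists, those for muscle, gut, fat body, photoreceptors, glia and testis are given by counts and by genes chosen after their values were seen. Alternatives were the deposited scale, centering, quantile normalization, an offset of 16, a floor at 40, other filters, an intensity trend and robust prior, the replicate block without and with that prior, replicates 2 and 3 alone, each array left out, and the mean of a gene's probe sets. No sequences or coordinates are given.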

Additional observations from a re-analysis of the deposited data

How the results depend on the processing

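No member was called higher or lower under any alternative except 1 called higher, SdhB, with the replicate block plus an intensity trend and robust prior. The median log2 difference of the members stayed above 0 throughout, at 0.34 with arrays centered on their median, 0.16 under quantile normalization, 0.11 for replicates 2 and 3 alone, 0.21 with a gene's probe sets averaged, and 0.15 to 0.31 with each array left out. Centering moved the median of all kept probe sets from -0.07 to 0.06, and it adds the same amount to every difference, so the members' distance from that median, 0.29, cannot change with it; under quantile normalization it was 0.15. The count of called probe sets among all kept was 214, and it was 128 with centering, 133 under quantile normalization, 397 after adding 16, 2 without a filter, 378 with a trend and robust prior, 0 with the replicate block (1903 at an unadjusted p under 0.05), 571 with both, 361 for replicates 2 and 3 alone, and 0 to 827 with each array left out. The highest, 827, was without LARK overexpression array 1. Higher calls were 5.14% of all calls, 21.9% on the deposited scale, 13.5% under quantile normalization, 24.9% with the block plus trend and robust prior, 54.3% for replicates 2 and 3 alone (196 higher and 165 lower) and 42.4% without LARK overexpression array 1 (351 higher and 476 lower, against 11 and 203). Without LARK overexpression array 1 the members' median was 0.17, with 47 of 57 above 0 and 0 called. The replicate block, which pairs arrays of one day, ended every call among the kept probe sets. These included nSyb, Gad1 and cac, neuron markers with log2 differences of -2.01, -2.01 and -1.50. On the deposited scale cac was not called either (limma adjusted p = 0.151). With a floor at 40 the log2 difference of cac was only -0.20 (limma adjusted p = 0.128). Signs that turned were mostly those of genes with small differences. They also turned for ND-51L1 and ATPsynbetaL, at -0.16 and -0.21 in the main fit. With centering ND-51 was 0.096, ATPsynbeta was 0.12, wal was 0.10, TFAM was 0.050 and lark was 0.092. Under quantile normalization ND-B16.6 was -0.035, Cyt-c1 was -0.022, ND-51L1 was 0.13, COX7A was -0.090 and slgA was -0.025. For replicates 2 and 3 alone COX4 was -0.043, ND-20 was -0.043 and Prx3 was -0.022. With each array left out in turn the log2 differences ranged for ND-20 from -0.013 to 0.18, ND-B14.5AL from -0.17 to 0.19, Cyt-c1 from -0.022 to 0.22, ATPsynbeta from -0.12 to 0.18, TFAM from -0.18 to 0.037, ND-51L1 from -0.33 to 0.082, ATPsynbetaL from -0.39 to 0.048, slgA from -0.087 to 0.20, COX4 from -0.034 to 0.20, wal from -0.078 to 0.050, Prx3 from -0.056 to 0.11 and lark from -0.14 to 0.040. The cause of these changes was not tested. Low signals limit the paralogues, since ND-51L1 and ND-51L2 were above 40 on 1 and 2 arrays.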

Other observations

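Antioxidant enzymes, which remove the superoxide and peroxide that the respiratory chain gives off, read higher with LARK overexpression for all 4 genes measured, with a median log2 difference of 0.30 and 0 called by limma (1 at an unadjusted p under 0.05). Trxr1, a thioredoxin reductase, read 768, 837 and 778 with LARK overexpression and 638, 438 and 499 in the control, with no overlap, at 0.61 (SE 0.21, limma adjusted p = 0.181). The catalase gene Cat read 697, 808 and 733 against 582, 598 and 573, also with no overlap, at 0.35 (SE 0.17, limma adjusted p = 0.325). Sod2, the superoxide dismutase of the mitochondrial matrix, named after its value was seen, read 627, 599 and 628 against 516, 499.7 and 537, at 0.26 (SE 0.17, limma adjusted p = 0.45). The fourth, Prx3, a mitochondrial peroxiredoxin, overlapped at 0.05. Trxr2, also of this list, was at most 40 on every array and so not measured. It went the other way without overlap, at 11.8, 13.9 and 8.2 against 15.4, 33.3 and 32.6. With so few genes the count says little about antioxidant enzymes in general.

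Regulators of mitochondrial genes and of the mitochondrial genome lay above 0 in 5 of 13, with a median log2 difference of -0.11 and 0 called (1 at an unadjusted p under 0.05). TFAM, which packages mitochondrial DNA, had -0.07 (SE 0.21), and crc, a stress-responsive transcription factor, had -0.18 (SE 0.18). The transcription factor gene foxo, named after its value was seen, read 10.5, 26.1 and 28.3 with LARK overexpression and 43.7, 62.1 and 63.2 in the control, at -1.49 (SE 0.41, limma adjusted p = 0.123). It had passed the filter through control arrays alone, where it was high, so its difference is no support. The signal of foxo was low throughout, and with a floor at 40 its difference was -0.47. Enzymes that pass electrons to the chain by other routes lay above 0 in 2 of 5, with a median of -0.02 and 0 called, among them wal, the alpha subunit of the electron transfer flavoprotein, at -0.02 (SE 0.17) and the proline dehydrogenase gene slgA at 0.06 (SE 0.23).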
